A study of Mus musculus with 5 samples.

Results

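Collagens, laminins, integrins, the matrix ligand nephronectin and the proteases and inhibitors that remodel the extracellular matrix were followed across 5 Affymetrix mouse arrays. The set was defined by gene symbol alone: collagen chains, laminin chains, symbols that begin with Itga or Itgb, numbered ADAMTS proteases and matrix metalloproteinases (MMPs), tissue inhibitors of metalloproteinases (TIMPs), and Npnt. It held 117 of 18193 named genes, measured by 239 probe sets. The brightest probe set by mean log2 signal stood for each gene, and 51 of the 117 were bright enough to be tested, among 11063 genes tested in all.

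The arrays measured RNA from the germinal layers (ventricular and subventricular zone) of the rostral medial ganglionic eminence (MGE), a source of cortical interneurons in the ventral forebrain, at E15.5. The groups were Dlx1/2 mutant tissue (2 arrays), WT tissue (1 array), primary neuronal cultures from Dlx1/2 mutant embryos (1 array) and the same cultures from WT embryos (1 array). Dlx1 and Dlx2 encode homeodomain transcription factors. The labels name neither the alleles, nor the days in culture, nor whether embryos were pooled or the 2 mutant tissue arrays were separate embryos, so p-values measure spread between these arrays only, and it may be technical.

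Collagens form fibrils, networks and sheets outside cells, and laminins with type IV collagen form the basement membrane that lines the brain surface and its blood vessels. Integrins are receptors made of an α and a β subunit that bind these ligands and connect them to actin. In the embryonic forebrain, radial glia contact the pial basement membrane through laminin-binding integrins, and secreted or membrane-bound proteases trim the matrix under the restraint of TIMPs.

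The labels held in the targeted genes. Dlx1 read 2.80 and 0.92 in mutant tissue, against 3278 in WT tissue, and 1.26 in mutant culture against 603 in WT culture. Dlx2 read 18.7 and 11.7 in mutant tissue, against 1069 in WT tissue, and 21.7 in mutant culture against 331 in WT culture. All these values, and those below, are deposited linear signals unless a log2 scale is named, and a signal is compared only with the same probe set on other arrays. The MGE gene Lhx6 was measured in every array, at 374 and 914 in mutant and WT culture, against 895 and 924 in mutant tissue and 1321 in WT tissue. Nkx2-1, which specifies the MGE, read 12.6 and 16.2 in mutant and WT culture, below the level of 27.8 that a gene's mean had to exceed to be tested, against 60.6 and 78.4 in mutant tissue and 43.3 in WT tissue.

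Promoter windows are shown for 6 genes on which the results turn: Npnt, which differed most with genotype in tissue, Col4a1 and Col4a2, which share 1 promoter region, and Col8a1, Adamts1 and Timp3, the 3 genes with the largest rises in culture. Each window runs 5′ to 3′ from 250 bases before to 50 bases after the annotated start (RefSeq, GRCm38.p6). Capitals mark matches on either strand. The motifs searched were the core of an Sp1 box (GGGCGG), the CCAAT box, the TATA box in the form TATAAA, the AP-1 site in the form TGANTCA and a homeodomain core in the form TAATTA. Overlapping matches were joined. The windows lie at chr3:132950242-132950541 (minus strand, Npnt), chr8:11312777-11313076 (minus strand, Col4a1), chr8:11312555-11312854 (plus strand, Col4a2), chr16:57754688-57754987 (minus strand, Col8a1), chr16:85803064-85803363 (minus strand, Adamts1) and chr10:86300162-86300461 (plus strand, Timp3).
Npnt: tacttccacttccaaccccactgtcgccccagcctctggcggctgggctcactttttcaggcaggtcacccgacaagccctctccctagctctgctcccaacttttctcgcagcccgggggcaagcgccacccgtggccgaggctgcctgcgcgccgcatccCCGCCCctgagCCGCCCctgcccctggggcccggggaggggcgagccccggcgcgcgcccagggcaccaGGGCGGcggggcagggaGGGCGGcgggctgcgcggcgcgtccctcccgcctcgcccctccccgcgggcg
Col4a1: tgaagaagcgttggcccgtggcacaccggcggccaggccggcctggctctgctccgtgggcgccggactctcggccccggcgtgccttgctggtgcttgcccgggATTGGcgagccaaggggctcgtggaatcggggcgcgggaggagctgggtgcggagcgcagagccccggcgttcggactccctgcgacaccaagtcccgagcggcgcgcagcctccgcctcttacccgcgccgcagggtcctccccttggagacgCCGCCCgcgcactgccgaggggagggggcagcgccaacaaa
Col4a2: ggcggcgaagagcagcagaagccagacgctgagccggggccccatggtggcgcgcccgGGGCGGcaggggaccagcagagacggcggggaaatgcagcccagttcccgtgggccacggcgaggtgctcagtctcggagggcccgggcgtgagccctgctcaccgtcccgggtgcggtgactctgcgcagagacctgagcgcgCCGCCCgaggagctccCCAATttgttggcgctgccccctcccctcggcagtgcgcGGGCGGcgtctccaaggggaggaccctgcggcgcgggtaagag
Col8a1: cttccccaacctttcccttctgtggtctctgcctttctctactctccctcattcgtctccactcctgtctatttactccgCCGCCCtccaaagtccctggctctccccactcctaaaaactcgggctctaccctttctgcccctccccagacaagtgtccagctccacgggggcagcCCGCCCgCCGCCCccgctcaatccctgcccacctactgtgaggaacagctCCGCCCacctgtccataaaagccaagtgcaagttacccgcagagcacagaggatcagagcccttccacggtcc
Adamts1: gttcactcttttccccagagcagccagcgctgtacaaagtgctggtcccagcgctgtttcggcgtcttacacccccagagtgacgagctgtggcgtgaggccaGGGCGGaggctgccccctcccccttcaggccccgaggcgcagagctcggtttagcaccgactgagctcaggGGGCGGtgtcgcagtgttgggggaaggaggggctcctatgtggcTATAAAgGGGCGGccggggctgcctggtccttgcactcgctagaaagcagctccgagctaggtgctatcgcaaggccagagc
Timp3: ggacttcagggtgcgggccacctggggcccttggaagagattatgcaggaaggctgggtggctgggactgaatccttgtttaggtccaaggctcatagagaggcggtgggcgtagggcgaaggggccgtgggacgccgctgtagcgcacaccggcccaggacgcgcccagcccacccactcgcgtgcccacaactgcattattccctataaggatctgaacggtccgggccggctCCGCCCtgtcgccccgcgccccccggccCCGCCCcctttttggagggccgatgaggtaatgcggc

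Col4a1 and Col4a2 start 21 bases apart on opposite strands, and 78 bases of their windows are the same DNA read in opposite directions. None of the 6 windows held TAATTA or TGANTCA, and Adamts1 alone among them held TATAAA, beside 3 Sp1 cores. Npnt has a second annotated start, whose window (chr3:132949765-132950064, not shown) matched none of the motifs. Windows were found for 81 of the 117 genes (91 windows in all). TAATTA stood in 5.49% of them, against 4.53% of 21263 windows of all protein-coding genes, and GGGCGG in 52.7%, against 46.2%. TGANTCA stood in 10.99%, against 6.99%, TATAAA in 14.3%, against 12.6%, and CCAAT in 28.6%, against 38.2%. Only 12 of the 17 genes that rose in culture and 4 of the 7 that fell had a window. GGGCGG stood in 12 of 13 windows of the former and in 4 of 4 windows of the latter. Its share in windows of all tested genes was not counted. These matches describe letters in a window and were not tested against the expression values.

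Across both preparations together, no gene of the set differed between mutants and WT past the threshold (adjusted p under 0.05 over all genes, limma). The count was 0 of 51, where 1.07% of all tested genes passed (0.814% higher and 0.253% lower). In this fit a genotype difference that changed between preparations, as for Npnt below, counted as residual spread. An unadjusted p under 0.05 was reached by 12 of the 51, or 23.5%, against 13% of all tested genes. The largest of these differences belonged to Npnt, at 2.84 ± 0.69 log2 (SE, adjusted p = 0.13, limma), and it was higher in each of the 3 mutant arrays than in either WT array. The 12 also included Itga6 at 0.63 ± 0.16 (adjusted p = 0.14, limma), Col25a1 at 1.45 ± 0.37 (adjusted p = 0.15, limma) and Timp2 at 0.36 ± 0.11 (adjusted p = 0.20, limma).

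In tissue alone, 5 genes rose and 2 fell in mutants: nephronectin, the inhibitor Timp3, the integrin subunits Itga6 and Itgb1 and the membrane protease Mmp24 were higher, and the aggrecanase Adamts5 and Itgb3bp were lower. These 7 of 51 are 13.7%, against 15.3% of all tested genes. For rises the shares were 9.8% and 8.59%, and for falls 3.92% and 6.7%. The share of the set was thus close to that of all genes. The median difference of the 51 genes was 0.06 log2, beside 0.00 for all genes.

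Npnt encodes nephronectin, a secreted matrix protein and ligand of integrin α8β1, known in the mouse from kidney development. It read 549 and 399 in mutant tissue, against 22.1 in WT tissue, and 490 in mutant culture against 306 in WT culture. The WT tissue array alone was low, and WT culture lay near the mutants. In tissue the rise was 22.3-fold (4.48 ± 0.22 log2, adjusted p = 1.7e-07, limma). All 4 Npnt probe sets above the intensity level were higher in mutant tissue, by 0.92, 1.98, 4.48 and 4.02 log2, while in culture they differed by −0.18, 0.02, 0.66 and 0.78. The genotype difference in culture minus that in tissue was −3.83 ± 0.31 log2 (adjusted p = 0.00057, limma).

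Of the 2 subunits of the nephronectin receptor, Itga8 was too dim to be tested, at 8.26 and 11.998 in mutant tissue, against 21.2 in WT tissue, and 23.8 in mutant culture against 39.7 in WT culture. It lay lower in mutants in each preparation, in values mostly below the tested range. Itgb1, the β subunit shared by most matrix-binding integrins, read 286 and 296 in mutant tissue, against 198 in WT tissue, and 269 in mutant culture against 249 in WT culture. Mutant tissue was highest and WT tissue lowest, a 1.43-fold rise in tissue (0.52 ± 0.15 log2, adjusted p = 0.035, limma). The other Itgb1 probe sets above the intensity level differed by 0.01 and −0.32 log2 in tissue, and the mean of all its probe sets gave −0.04 (adjusted p = 0.96, limma), so the direction depended on the probe set.

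Itga6, a laminin-binding α subunit found on neural progenitors, read 367 and 384 in mutant tissue, against 196 in WT tissue, and 624 in mutant culture against 511 in WT culture. Mutants were higher in both preparations, and the tissue rise was 1.85-fold (0.89 ± 0.14 log2, adjusted p = 0.001, limma). A further Itga6 probe set differed by 0.18 log2 in tissue. The other 4 tested α subunits (Itga2b, Itga3, Itga4 and Itgav) and the other tested β subunits, Itgb5 and Itgb8, did not pass in tissue. Itgb8, which pairs with αv and activates TGF-β in the developing brain, read 1438 and 1417 in mutant tissue, against 1313 in WT tissue.

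Itgb3bp, whose product is a nuclear protein named for binding the integrin β3 tail and also known at centromeres, is no integrin subunit. It read 157 and 160 in mutant tissue, against 367 in WT tissue, and 404 in mutant culture against 282 in WT culture. This was its only probe set above the intensity level, and the others differed by −0.14, −1.62, −1.34 and 0.73 log2 in tissue. The fall in mutant tissue was 2.42-fold (−1.27 ± 0.16 log2, adjusted p = 0.00024, limma), and mutant culture held the highest of the 5 values. The culture difference minus the tissue difference was 1.77 ± 0.22 log2 (adjusted p = 0.0039, limma).

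Adamts5, a secreted protease that cleaves aggrecan and versican, read 64.3 and 69.1 in mutant tissue, against 252 in WT tissue, and 43.4 in mutant culture against 45.5 in WT culture. WT tissue alone was high with this probe set. In culture the other Adamts5 probe sets above the intensity level differed by −1.29 and 0.25 log2. Mutant tissue was 3.95-fold lower (−1.98 ± 0.22 log2, adjusted p = 1e-04, limma), and the other Adamts5 probe sets above the intensity level fell by 2.34 and 1.72 log2. The culture difference minus the tissue difference was 1.88 ± 0.40 log2 (adjusted p = 0.031, limma).

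Mmp24, a membrane-type MMP of neural tissue, read 107 and 102 in mutant tissue, against 57.2 in WT tissue, and 99.1 in mutant culture against 103 in WT culture. Its 1.82-fold rise in tissue (0.87 ± 0.25 log2, adjusted p = 0.036, limma) was not shared by a second probe set, at −0.56 log2. Timp3, the matrix-bound inhibitor of MMPs and ADAMTS proteases, read 91.0 and 106 in mutant tissue, against 46.8 in WT tissue, and 515 in mutant culture against 533 in WT culture. The tissue rise was 2.13-fold (1.09 ± 0.27 log2, adjusted p = 0.016, limma), and its other probe sets above the intensity level differed by −0.35, 0.72 and 0.23. Timp2 (0.37 log2, adjusted p = 0.061, limma), Timp1 and Timp4 did not pass in tissue.

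The WT tissue array was the lowest or the highest of the 5 arrays in 6 of the 7 genes that passed in tissue (lowest in 5, highest in 1). The same held for 65.8% of all genes that passed in tissue. What moved with this 1 array was not tested further, and the WT tissue group cannot be told apart from its array. All 7 calls ended when dim genes were tested too and when the intensity trend was left out of the variance prior.

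**Figure D1:**
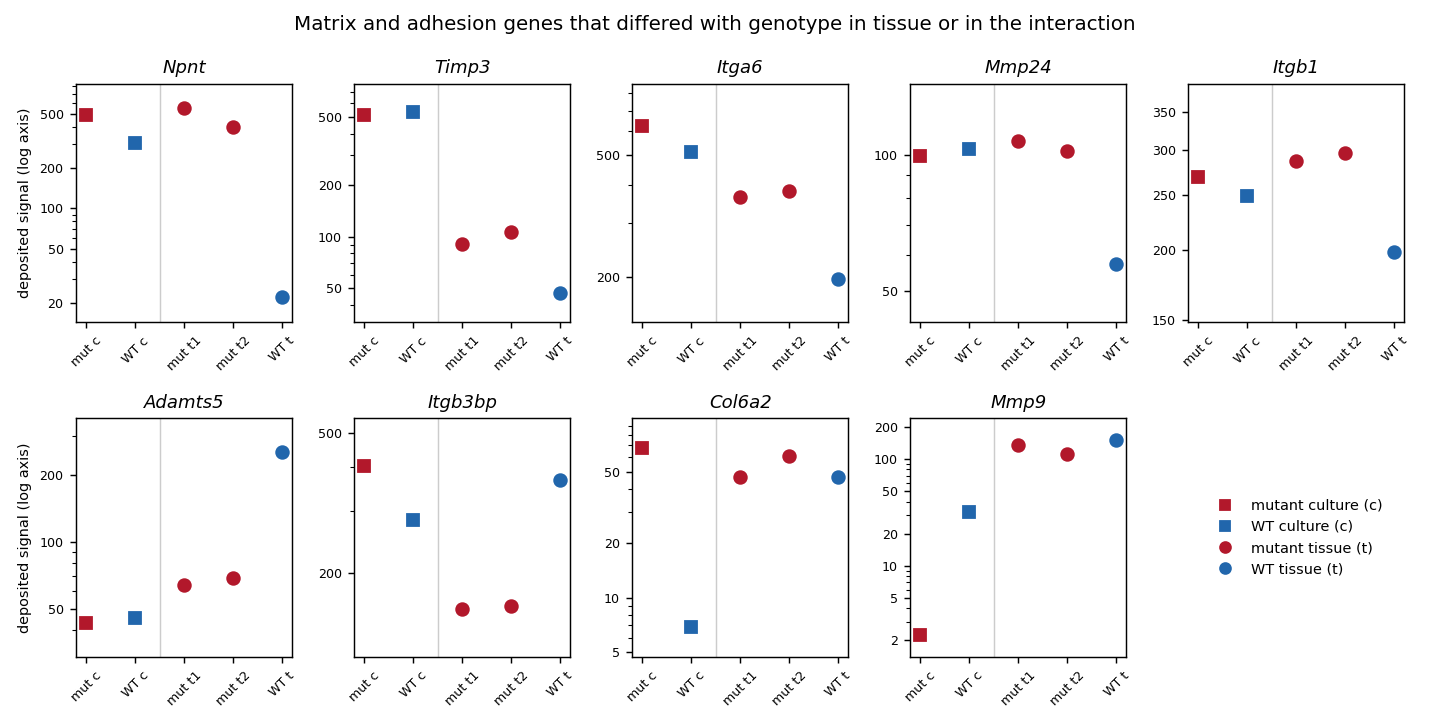
Deposited signal (y axis, log scale, 1 scale per gene) on each of the 5 arrays (x axis: c, culture, squares; t, tissue, circles; red, mutant; blue, WT) for the 9 genes past the threshold for genotype in tissue or for the interaction. The WT tissue point stands apart from the others for Npnt (22.1) and Adamts5 (252), and WT culture for Col6a2 (6.86).

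No collagen or laminin passed for genotype in tissue (limma). An unadjusted p under 0.05 was reached by 1 of 4 tested basement membrane collagens, 2 of 5 fibrillar collagens, 2 of 9 other collagens and 1 of 4 laminins, where 29% of all tested genes reached it. Col4a2, whose chain joins that of Col4a1 in the main basement membrane network, read 139 and 161 in mutant tissue, against 99.3 in WT tissue (0.54 log2, adjusted p = 0.096, limma). Col4a1 read 250 and 249 in mutant tissue, against 273 in WT tissue. Neither passed, and a second Col4a1 probe set differed by 0.11 log2, on the same side as Col4a2. Lamb1, a laminin β chain, read 78.7 and 73.3 in mutant tissue, against 42.9 in WT tissue, and 22.2 in mutant culture against 40.5 in WT culture (0.85 log2 in tissue, adjusted p = 0.075, limma). With this probe set mutants were higher in tissue and lower in culture, while a second Lamb1 probe set was higher in mutants in both (0.27 and 0.78 log2). Col18a1, the vessel and epithelial basement membrane collagen that gives rise to endostatin, read 50.4 and 74.5 in mutant tissue, against 104 in WT tissue (−0.81 log2, adjusted p = 0.092, limma).

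In culture 1 mutant array was set against 1 WT array, with no replicate and no test. At least a 2-fold difference was seen in 4 of 51 genes, where 3.68% of all tested genes reached it. The 2 higher and 2 lower genes are 3.92% each, against 1.85% and 1.83% of all tested genes. Col6a2, a chain of the microfibril-forming type VI collagen, read 67.6 in mutant culture against 6.86 in WT culture, or 9.84-fold higher, while tissue held 46.6 and 61.0 in mutants and 46.3 in WT. Only WT culture was low with this probe set. Another Col6a2 probe set, under the intensity level, differed by 1.31 log2 in tissue and −0.53 in culture. Col25a1, a transmembrane collagen of neurons, read 97.3 in mutant culture against 23.8 in WT culture (3.93-fold higher), and 58.4 and 36.6 in mutant tissue, against 23.6 in WT tissue. With this probe set the 3 mutant arrays all lay above both WT arrays. A dimmer Col25a1 probe set, under the intensity level, differed by −1.06 log2 in tissue and −0.64 in culture.

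Mmp9, the gelatinase B gene, read 2.27 in mutant culture, below the floor of 5.15, against 31.7 in WT culture. This is at least 6.56-fold lower on the normalized scale. In tissue it read 134 and 111 in mutants, against 150 in WT. A second Mmp9 probe set, with a mean under the intensity level, read 1.84 and 1.79 in mutant and WT culture, both below the floor. In tissue that probe set read 45.7 and 55.4 in mutants, against 58.1 in WT. Mmp11, stromelysin-3, read 21.3 in mutant culture against 56.4 in WT culture, 2.74-fold lower, and 41.4 and 48.9 in mutant tissue, against 38.2 in WT tissue. The groups stood in opposite order in the 2 preparations.

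The genotype difference itself differed between culture and tissue for 5 of the 51 genes (9.8%), where 4.48% of all tested genes passed. It was higher in culture for 3 (5.88%, against 2.21% of all tested genes) and lower for 2 (3.92%, against 2.27%). Besides Npnt, Itgb3bp and Adamts5 these were Col6a2 (3.07 ± 0.62 log2, adjusted p = 0.025, limma) and Mmp9 (−2.36 ± 0.51 log2, adjusted p = 0.031, limma). The Mmp9 value holds mutant culture at the floor, and with a floor at a signal of 1 it was −3.63. With the mean of the Mmp9 probe sets it was −1.08. For Timp3 the value was −1.13 ± 0.28 (adjusted p = 0.057, limma). Each of these 5 rests on 1 culture array per genotype and 1 WT tissue array, and all 5 calls ended without the filter on dim genes and without the intensity trend. With the mean of a gene's probe sets 0 of 30 tested genes of the set passed, and 5 had an unadjusted p under 0.05 (Npnt −2.20, adjusted p = 0.16, limma). In 24 of 51 genes (47.1%) the differences in tissue and in culture had the same sign, against 52.9% of all tested genes.

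**Figure D2:**
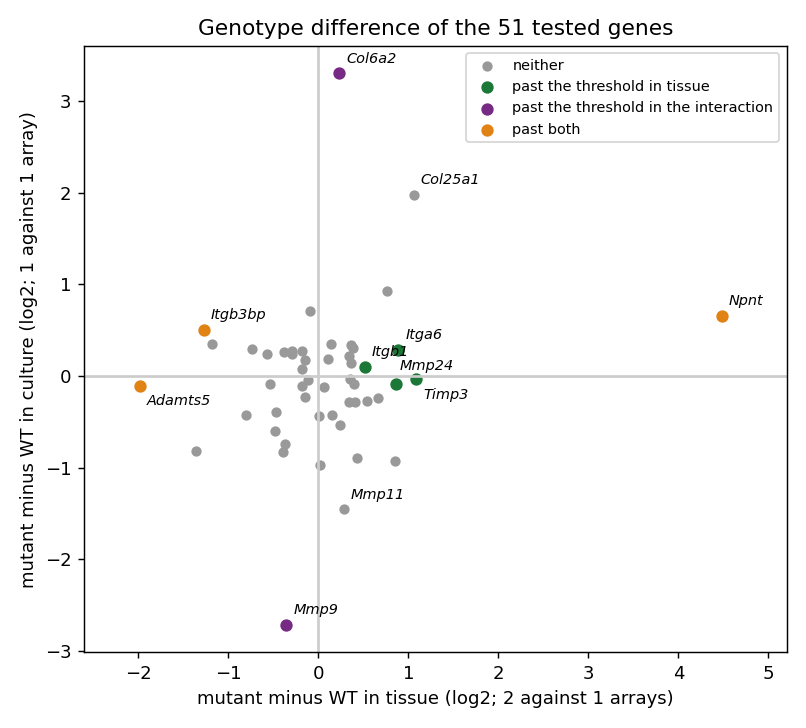
Mutant minus WT difference in tissue (x axis, log2) against that in culture (y axis, log2) for the 51 tested genes, 1 point per gene, coloured by which test it passed. Npnt lies far right at 4.48 in tissue and 0.66 in culture, Col6a2 highest at 3.30 in culture, and Mmp9 lowest at −2.71.

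Between preparations the set moved more. In culture 17 genes rose and 7 fell relative to tissue, 24 of 51 or 47.1%, where 38.8% of all tested genes passed. Rises took 33.3% of the set and 19.6% of all tested genes, and falls 13.7% and 19.2%. The median of the 51 was 0.51 log2, beside 0.00 for all tested genes. Rises included 3 of 5 tested fibrillar collagens, 3 of 5 tested integrin α subunits and 2 of 4 TIMPs, while both main type IV collagen chains fell. All 24 had both culture arrays outside the range of the 3 tissue arrays, as had 33 of the 51 genes (64.7%) and 58.8% of all tested genes. In these bulk samples fewer cells of a type and less RNA per cell cannot be told apart.

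Among 4 tested basement membrane collagens 1 rose and 2 fell. Col4a1 read 143 and 155 in mutant and WT culture, against 250 and 249 in mutant tissue and 273 in WT tissue (−0.74 ± 0.14 log2, adjusted p = 0.0047, limma). Col4a2 read 60.9 and 71.6 in mutant and WT culture, against 139 and 161 in mutant tissue and 99.3 in WT tissue (−0.87 ± 0.24 log2, adjusted p = 0.022, limma). The culture arrays lay below every tissue array for both, though Col4a2 did not pass without mutant tissue replicate 1 (adjusted p = 0.066, limma) or 2 (0.084). Col4a5, whose chain belongs to a more restricted network, went the other way, with 387 and 331 in mutant and WT culture, against 140 and 149 in mutant tissue and 110 in WT tissue (2.93-fold, 1.55 ± 0.14 log2, adjusted p = 0.00017, limma).

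Fibrillar collagens counted 3 rises and no fall among 5 tested. Col5a2, a chain of type V collagen that starts fibril assembly, read 1012 and 1204 in mutant and WT culture, against 231 and 241 in mutant tissue and 252 in WT tissue (4.46-fold, 2.16 ± 0.12 log2, adjusted p = 1.4e-05, limma). A second Col5a2 probe set above the intensity level rose less, by 0.80 log2 in mutants and 0.89 in WT. Col1a2, a chain of type I collagen, read 158 and 207 in mutant and WT culture, against 38.5 and 27.7 in mutant tissue and 46.9 in WT tissue (4.93-fold, 2.30 ± 0.24 log2, adjusted p = 3e-04, limma). Its partner Col1a1 was not tested, and read 24.6 and 50.3 in mutant and WT culture, against 3.88 and 1.93 in mutant tissue and 5.33 in WT tissue, with no overlap. Col11a1, a minor fibril component, rose 2.72-fold (1.44 ± 0.27 log2).

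Of 9 other tested collagens 2 rose and 1 fell. Col8a1, a chain of a short network collagen made by vessel walls and endothelia, read 379 and 405 in mutant and WT culture, against 15.47 and 8.32 in mutant tissue and 18.1 in WT tissue. This was the largest change of the set, 29.3-fold (4.87 ± 0.33 log2, adjusted p = 4.2e-05, limma), and tissue held values below the intensity level. Col12a1, a fibril-associated collagen, rose by 1.07 log2, a call lost without mutant tissue replicate 2 (0.91, adjusted p = 0.076, limma). Col26a1 fell by 1.88 ± 0.45 log2, to 9.96 and 16.9 in mutant and WT culture, against 47.6 and 60.7 in mutant tissue and 40.9 in WT tissue (adjusted p = 0.012, limma). It was too dim to be tested without either mutant tissue replicate.

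Lamc1, the γ chain shared by most laminins, was the 1 riser of 4 tested laminins, with 207 and 181 in mutant and WT culture, against 59.5 and 66.6 in mutant tissue and 68.8 in WT tissue (3.14-fold, 1.65 ± 0.19 log2, adjusted p = 0.00049, limma). With the mean of its probe sets the difference was 0.52 (adjusted p = 0.39, limma). Lama1, an α chain of the early laminin trimer, was too dim to be tested, and read 60.9 and 50.3 in mutant and WT culture, against 17.8 and 4.004 in mutant tissue and 11.8 in WT tissue. Lamb1 read 22.2 and 40.5 in mutant and WT culture, against 78.7 and 73.3 in mutant tissue and 42.9 in WT tissue. On the normalized scale its culture minus tissue difference was −1.70 log2 in mutants and 0.08 in WT. It did not pass (−0.94 log2, adjusted p = 0.11, limma).

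Of 5 tested integrin α subunits 3 rose and 1 fell, and of 3 tested β subunits 1 rose. Itgav, the α subunit that binds vitronectin and fibronectin, read 498 and 532 in mutant and WT culture, against 250 and 215 in mutant tissue and 169 in WT tissue (2.58-fold, 1.37 ± 0.16 log2, adjusted p = 0.00054, limma). Its partner Itgb5 rose by 0.97 log2, the laminin receptor subunit Itga3 by 1.33 and Itga6 by 1.03. Itga4, which binds fibronectin and VCAM-1, read 17.9 and 22.9 in mutant and WT culture, against 61.9 and 52.2 in mutant tissue and 52.1 in WT tissue, and fell by 1.37 ± 0.34 log2 (adjusted p = 0.014, limma), or 0.074 without mutant tissue replicate 1. Among genes that carry an integrin name but encode no subunit, Itgb1bp1, which binds the β1 tail inside the cell, rose by 0.90 log2. Itgbl1, a secreted relative of the β subunits, rose 3.52-fold, with 76.8 and 75.9 in mutant and WT culture, against 27.2 and 22.8 in mutant tissue and 21.0 in WT tissue. These tissue values lay below the intensity level.

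Of the proteases, Adamts1, which cleaves versican, read 218 and 257 in mutant and WT culture, against 19.5 and 21.2 in mutant tissue and 13.8 in WT tissue. It rose 14.3-fold (3.83 ± 0.31 log2, adjusted p = 8.8e-05, limma), and its tissue values all lay below the intensity level. Adamts5 fell by 1.33 ± 0.39 log2 (adjusted p = 0.029, limma). The Adamts5 fall was 2.40 log2 in WT and 0.53 in mutants. Mmp9 fell by 3.51 ± 0.49 log2 (adjusted p = 0.0011, limma), a fitted value that holds mutant culture at the floor. With a floor at a signal of 1 it was −4.24. Mmp14, the membrane-bound activator of pro-MMP2, read 123 and 97.3 in mutant and WT culture, against 205 and 204 in mutant tissue and 150 in WT tissue, and fell by 0.62 ± 0.16 log2 (adjusted p = 0.016, limma). Without mutant tissue replicate 1 or 2 the adjusted p was 0.075 or 0.067 (limma). Mmp16, another membrane-type MMP, rose by 0.81 log2, a call lost without mutant tissue replicate 1 (0.83, adjusted p = 0.052, limma).

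Timp3 rose 7.65-fold (2.94 ± 0.25 log2, adjusted p = 0.00012, limma), from the signals given above. Timp2, which both inhibits MMPs and helps Mmp14 activate pro-MMP2, read 1311 and 1040 in mutant and WT culture, against 496 and 482 in mutant tissue and 369 in WT tissue (2.70-fold, 1.43 ± 0.11 log2, adjusted p = 6e-05, limma). Culture lay above tissue on both genotypes' arrays. The size depended on the probe set: another nearly as bright rose by 3.06 log2 in mutants and 2.63 in WT, and it became the brightest when either mutant tissue replicate was left out (2.89 and 2.84 log2). Timp1 read 39.2 and 58.5 in mutant and WT culture, against 21.4 and 24.8 in mutant tissue and 34.1 in WT tissue (0.88 log2, adjusted p = 0.075, limma). Timp4, at 52.9 and 42.1 in mutant and WT culture, against 47.2 and 24.8 in mutant tissue and 40.5 in WT tissue, overlapped between preparations.

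**Figure D3:**
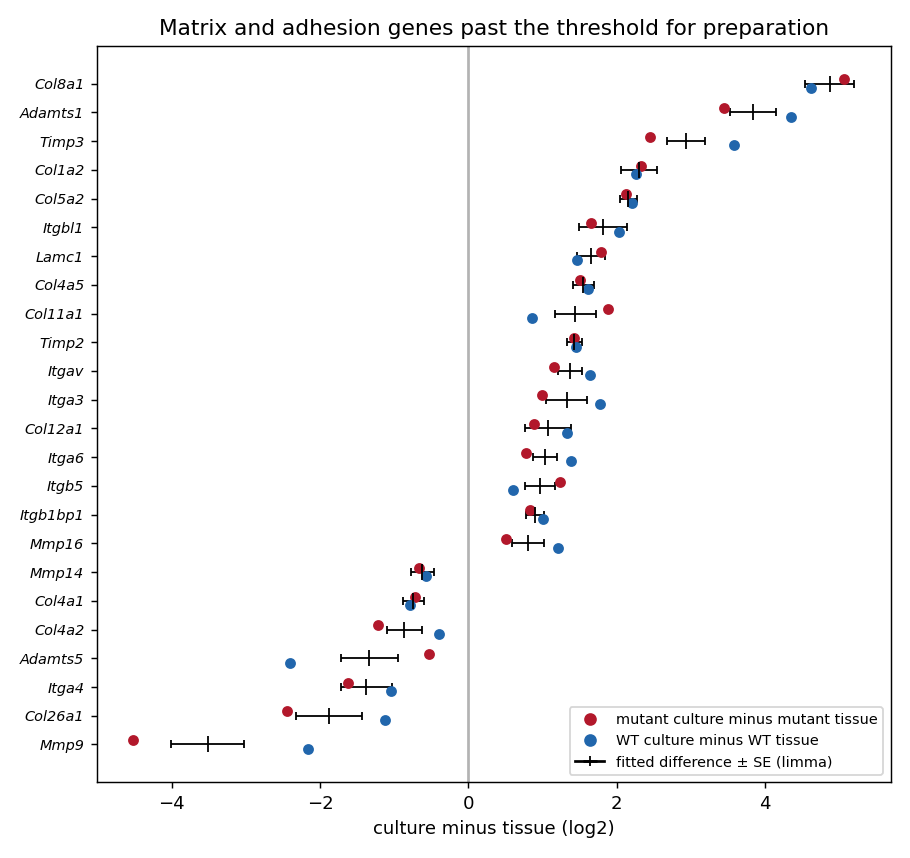
Culture minus tissue difference (x axis, log2) of the 24 genes past the threshold (y axis), as the limma estimate with its SE (black) and within mutants (red) and WT (blue), each against the mean of its own tissue arrays. The genotypes lie on the same side of 0 for all 24, and are far apart for Adamts5 (−0.53 in mutants, −2.40 in WT) and Mmp9 (−4.52 in mutants, −2.17 in WT).

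**Figure D4:**
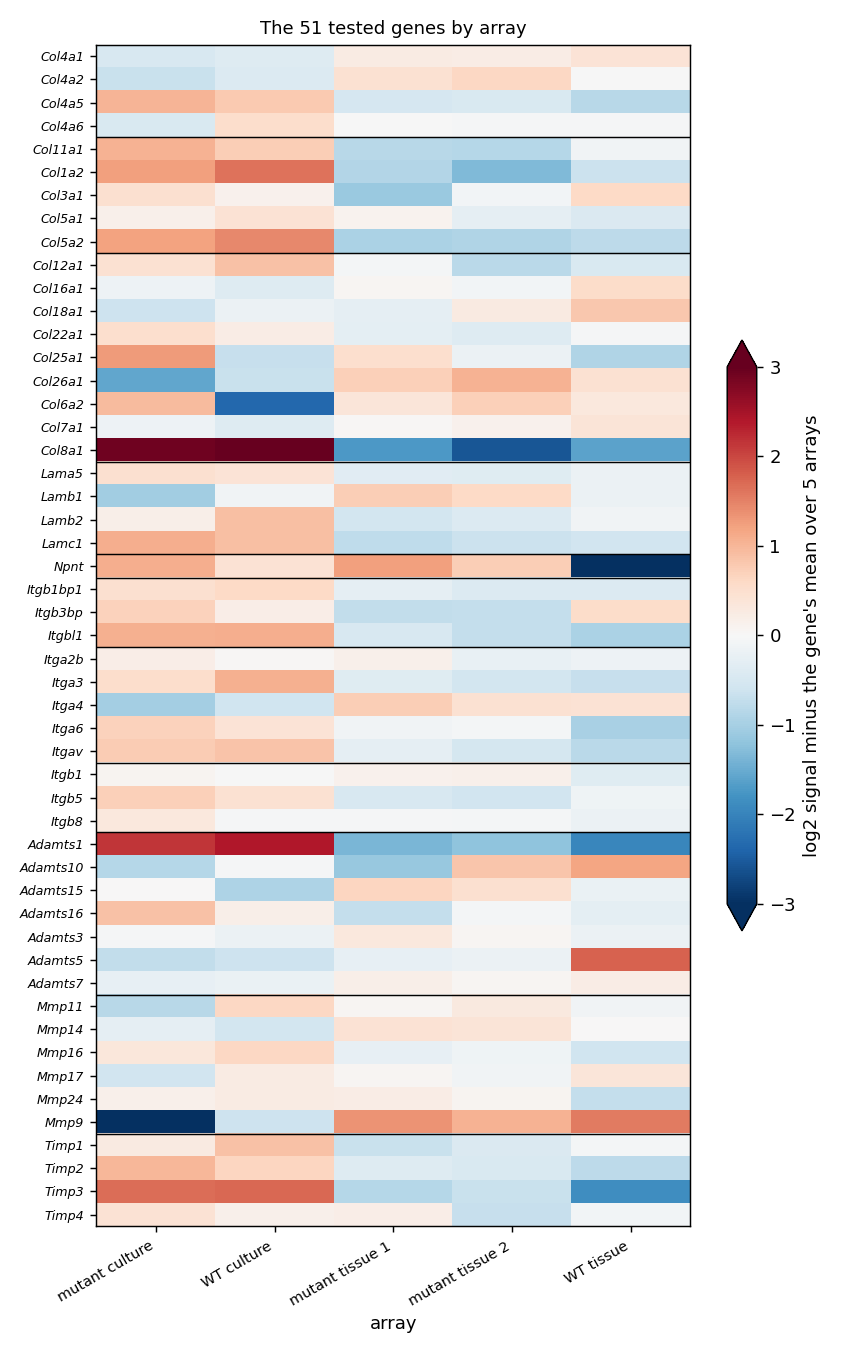
Normalized log2 signal of the 51 tested genes (y axis, grouped by role between the black lines, with basement membrane collagens at the top and TIMPs at the bottom) on each array (x axis), minus the gene's own mean over the 5 arrays. Culture columns are red for Col8a1, Adamts1 and Timp3, and the WT tissue column is dark blue for Npnt and red for Adamts5.

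Neighbouring matrix pathways were counted from lists of genes with a textbook role in them. Beside these counts, 19.6% of all tested genes rose and 19.2% fell in culture. In mutant tissue 8.59% of all tested genes rose and 6.7% fell. Of 14 tested collagen processing enzymes, which modify and cleave procollagen, 11 rose in culture and 0 fell, with a median of 0.97 log2, and 0 passed for genotype in tissue (limma), where 5 had an unadjusted p under 0.05. Serpinh1, the collagen chaperone, read 2614 and 2701 in mutant and WT culture, against 602 and 689 in mutant tissue and 606 in WT tissue. Pcolce (3.62 log2) and Plod2 (2.38 log2) rose more. Of 14 tested integrin adaptors and effectors 10 rose and 1 fell in culture (median 0.92 log2), led by Actn1 (2.82), Vcl (2.28) and Parva (1.60), which link integrins to actin, and 0 passed for genotype in tissue (limma), where 2 had an unadjusted p under 0.05.

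Of 31 tested other matrix and basement membrane genes 11 rose and 9 fell in culture, among them Thbs1 (4.23 log2) and Efemp1 (3.40) upward and Vtn (−3.91) downward. In tissue 7 of these 31 rose in mutants and 2 fell, including the heparan sulfate proteoglycans Sdc3 (1.28 log2) and Gpc4 (1.03) and the fibulin Fbln1 (−0.70). The brain proteoglycan Bcan passed across both preparations (0.93 ± 0.16 log2, adjusted p = 0.044, limma), with 672 and 673 in mutant tissue, against 419 in WT tissue, and 464 in mutant culture against 184 in WT culture. Of 14 tested membrane and other proteases and protease inhibitors 6 rose and 1 fell in culture, led by A2m (4.52 log2), Adam9 (2.08) and Ctsl (1.77), and 2 rose in mutant tissue, Serpini1 (0.70) and Cst3 (0.26).

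Marker genes of other cell types moved with the preparation, where 19.6% of all tested genes rose and 19.2% fell in culture. The summed signal of 11 pericyte and smooth muscle markers was 24317 and 24350 in mutant and WT culture, against 1387 and 1494 in mutant tissue and 1447 in WT tissue. Of 9 tested, 3 rose and 3 fell, with Acta2 at 14086 and 13627 in mutant and WT culture, against 86.4 and 94.9 in mutant tissue and 72.3 in WT tissue, while the pericyte gene Abcc9 fell by 4.83 log2. The sum of 11 endothelial markers was 329 and 222 in mutant and WT culture, against 1115 and 1249 in mutant tissue and 1314 in WT tissue, and 4 of 7 tested fell, Cldn5 by 4.89 log2 and Esam by 3.40.

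For 12 meningeal and fibroblast markers the sum was 1833 and 1429 in mutant and WT culture, against 1657 and 1772 in mutant tissue and 1374 in WT tissue. Of 6 tested, 1 rose (Ogn, 3.65 log2) and 3 fell (Igf2, −5.14). For 12 astrocyte and radial glia markers it was 32542 and 26687 in mutant and WT culture, against 20402 and 18988 in mutant tissue and 18225 in WT tissue, and 7 of 10 tested rose and 2 fell. Of 10 tested neuronal markers 2 rose and 5 fell in culture, and of 8 tested oligodendrocyte lineage markers 0 rose and 4 fell. These markers' part in the matrix differences was not tested.

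Markers also moved with genotype in tissue, where 8.59% of all tested genes rose and 6.7% fell in mutants. Of 10 tested neuronal markers 8 rose in mutant tissue and 0 fell, of 8 oligodendrocyte lineage markers 6 rose and 0 fell, and of 10 astrocyte and radial glia markers 5 rose and 0 fell. Of 7 tested endothelial markers 0 passed in either direction (limma), where 2 had an unadjusted p under 0.05, and of 9 tested pericyte and smooth muscle markers 1 rose (Tagln). Of 6 tested meningeal and fibroblast markers 2 rose (Pdgfra, 1.62 log2, and Ogn, 1.33) and 0 fell. The part of all these markers in the genotype differences above was not tested.

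**Figure D5:**
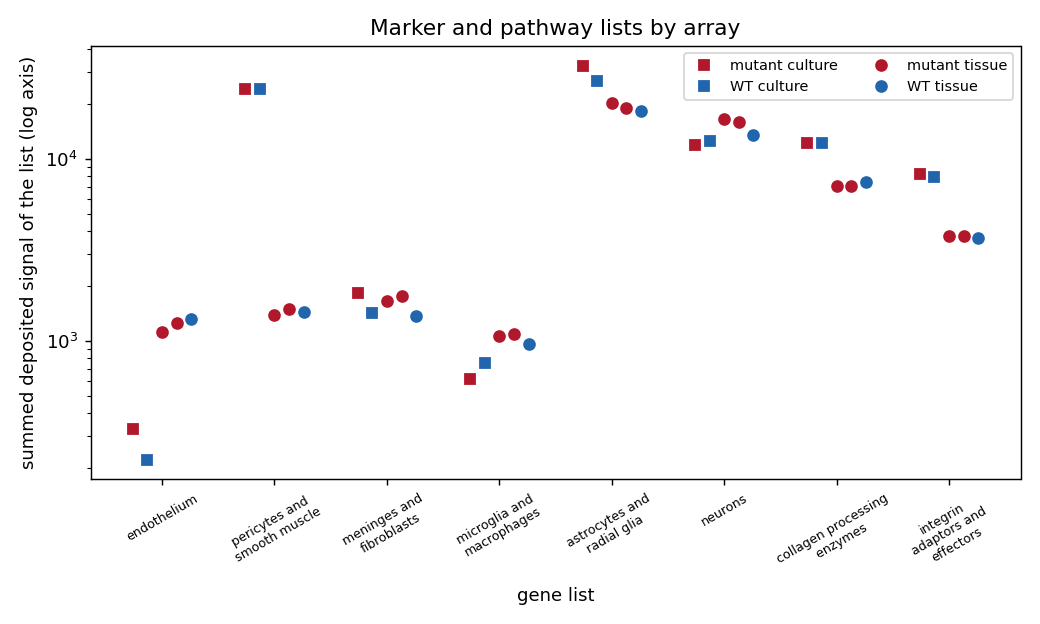
Summed deposited signal (y axis, log scale) of 8 gene lists (x axis) on each array (squares, culture; circles, tissue; red, mutant; blue, WT). Culture lies above tissue for the sum of pericyte and smooth muscle markers (24317 and 24350 in mutant and WT culture). Acta2 alone gave 14086 and 13627 of it, and of 9 tested markers 3 rose and 3 fell. The culture sums also lie above tissue for collagen processing enzymes and integrin adaptors, and below it for endothelial markers (329 and 222).

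The 66 genes that were not tested had means under the intensity level, and their signals ran between 0.488 and 68.9. Of these, 31 exceeded the level on at least 1 array and 35 on none. MMPs (10 of 16), collagens outside the basement membrane and fibrils (16 of 25) and integrin α subunits (11 of 16) made up most of them. All 4 TIMPs and Npnt were tested. A gene could be tested through the group in which it was high. This held for Col8a1, Adamts1 and Itgbl1 through culture, and for Itga4 and Col26a1 through tissue. The counts above thus describe the tested genes and not the family as a whole.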

How the data were processed

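RNA from 5 samples was measured on 1-colour Affymetrix arrays. The authors deposited 1 linear intensity value for each probe set; the software and detection calls are not given in the sources used here. From the values, every array had a trimmed mean of 150.001 (2% taken off either tail). Array medians ranged between 26.2 and 29.8 (0.183 log2).

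The values were quantile normalized, floored at the pooled 20th percentile (a signal of 5.15) and converted to log2. Control probe sets (64) were left out, and 34945 probe sets with 1 symbol in the platform annotation were used. All 117 genes matched RefSeq by Entrez identifier. Genes with a mean above the pooled median (4.80 log2, a signal of 27.8) were tested with limma 3.58.1 (R 4.3.3), an intensity-dependent prior variance and Benjamini-Hochberg adjustment over 11063 genes. Genotype across both preparations and culture minus tissue came from an additive model of 5 arrays (2 residual and 5.95 prior degrees of freedom). Genotype in tissue used 3 arrays (1 and 10.9) and the interaction 4 groups (1 and 8.57). In the tissue and interaction models, unreplicated groups were taken to vary like the mutant tissue pair. In the additive model the residual also held any change of the genotype difference between preparations. The additive model was run on simulated data with equal noise for all genes. The tissue and interaction models were not checked in this way. The number of arrays limits the precision.

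The members and lists were chosen with earlier results of these data known. Named were Npnt and its receptor subunits, Col4a1, Col4a2, Lama1, Lamb1, Lamc1, the TIMPs, the brightest gene of each role, all genes past the threshold for genotype across both preparations or the interaction, up to 12 in each direction for tissue and for preparation, and those at 2-fold in culture; others were chosen after their values were seen. Alternatives covered scaling, floor, filter, probe sets, variance prior and omitted replicates. Microglia markers (9 tested) counted 1 rise and 3 falls in culture, red blood cell markers (4 tested) 0 and 4, and choroid plexus markers (3 tested) 1 and 0 by limma, where an unadjusted p under 0.05 was reached by 5, 4 and 1.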

Additional observations from a re-analysis of the deposited data

Results flagged for a closer look

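For 5 genes the mutant minus WT difference in culture differed from that in tissue by a test of the difference itself (limma, 4 groups). Npnt had the largest, at −3.83 log2, with all mutant arrays and WT culture between 306 and 549 and WT tissue at 22.1. Col6a2 differed by 3.07 log2, with WT culture at 6.86 and the other arrays between 46.3 and 67.6. Its dimmer probe set, under the intensity level, was lower in mutant culture (−0.53 log2). Mmp9 differed by −2.36 log2, with mutant culture at 2.27, below the floor. With the mean of its probe sets this was −1.08. Adamts5 differed by 1.88 log2, with WT tissue at 252 and the other arrays between 43.4 and 69.1. Its other probe sets above the intensity level differed by −1.29 and 0.25 log2 in culture. Itgb3bp differed by 1.77 log2, with mutant tissue at 157 and 160 and WT tissue, mutant culture and WT culture between 282 and 404.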

How the results depend on the processing

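No paired analysis was possible because the groups share fewer than 2 replicate numbers. For genotype across both preparations the count stayed at 0 of the tested genes of the set under every alternative run, limma in each case, with 5 to 15 at an unadjusted p under 0.05. For genotype in tissue, the 5 rises became 0 without the filter on dim genes, 1 with the mean of a gene's probe sets and 0 without the intensity trend. The 2 falls became 4, 0 and 0, and the 4 did not include Adamts5 or Itgb3bp. Itgb1 in tissue reversed with the mean of its probe sets (−0.043, adjusted p = 0.96). Itgb3bp in tissue was −1.28 without mutant replicate 2. In the interaction, 3 rises became 0 with the mean of probe sets and 0 without the trend, and 2 falls became 4 with the deposited scaling, 0 with the mean and 0 without the trend. For culture minus tissue, 17 rises became 12 without the filter and 12 with the mean. The 7 falls became 3 without the filter, 4 with the mean and 4 without either mutant tissue replicate. Calls lost without the filter included Itgbl1, Col11a1, Itga3, Mmp9, Col26a1, Itga4, Adamts5 and Col4a2. Lamc1 and Mmp14 were lost with the mean, and Adamts5 without the trend. Calls lost with a replicate left out were Itga4 and Mmp16 without replicate 1 and Col12a1 without replicate 2. Col4a2, Mmp14 and Col26a1 were lost without either, Col26a1 because it was then too dim to be tested. Without either replicate another Timp2 probe set became the brightest, which gave 2.89 and 2.84. In culture, 2 genes higher at 2-fold became 15 without the filter and 1 with the mean, and 2 lower became 13 without the filter, where dim genes enter. Of 178 tests of single genes under an alternative, 133 kept direction and call, 44 lost the call and 1 reversed; of 14 tissue values without a replicate, which have no test, 13 moved by less than the SD of the mutant pair and 1 by more. The deposited scaling and a floor at a signal of 1 left all 31 named calls in place each. Causes were not tested. Omitting a mutant tissue replicate left no test in tissue and no residual degree of freedom in the interaction.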

Other observations

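A cluster of 7 MMP genes lies on chromosome 9 (Mmp3, Mmp7, Mmp8, Mmp10, Mmp12, Mmp13 and Mmp20), and 0 of the 7 were bright enough to be tested. In 6 of the 7 a promoter window held both an AP-1 match (TGANTCA) and TATAAA, which stood together in 1.44% of all windows. Among the 66 untested genes, both culture arrays lay above all tissue arrays for 10, including Lama1, Itga1, Itga8 and Col1a1, and below them for 8, including Lama4 and Col9a3. Together these are 27.3% of the 66, against 21.8% of all 7130 untested genes. Itga1, an α subunit that binds collagen, read 68.9 and 51.7 in mutant and WT culture, against 10.5 and 5.64 in mutant tissue and 5.08 in WT tissue. Lama4, a laminin α chain of vessel walls, read 4.85 and 3.18 in mutant and WT culture, against 35.0 and 54.2 in mutant tissue and 37.9 in WT tissue.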
